A study of Mus musculus with 8 samples.

Results

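Circular RNAs (circRNAs) whose end lay less than 1 kb after their start on the genome were compared between contused and control mouse spinal cord. They numbered 3484 of the 37852 circRNAs with a probe on an Agilent 1-colour array that also carries mRNA and lncRNA probes. All array probes named by a chromosome, a start, an end and a strand with an end minus start below 1000 bases were taken, whatever their signal. The longer circRNAs that serve as background comprised 14639 spanning 1 to 10 kb, 15175 spanning 10 to 50 kb and 4554 spanning 50 kb or more. RNA came from the spinal cord of female mice aged 8 weeks, with 4 control and 4 contusion samples from separate mice, and no strain or genotype is given in the labels. The contusion samples were labelled 3 days after injury in their titles, whereas their descriptions give 3, 4, 5 and 6 days. The controls are called normal in their descriptions and sham-operated in the design text, so whether they had surgery is not settled.

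A circRNA forms when the spliceosome joins the end of an exon (the donor) to the start of the same or an upstream exon (the acceptor), a reaction called back-splicing. The resulting ring has no free ends, resists exonucleases and is often long-lived, and circRNAs are particularly abundant in the nervous system. A circle from a short span usually holds 1 exon or a few neighbouring exons, whereas a long span includes introns that are removed. Other short circles reported in catalogues lie within a single exon or on the strand opposite to the gene, and what joins their ends is less well understood.

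Circles in the set were 51 to 1000 nt long when no intron is removed, with a median of 430.5 nt. Of the 3484, 3268 lay within exactly 1 gene of the RefSeq table (build GRCm38.p6), 138 within several genes and 78 within none, and those with 1 gene came from 2303 hosts. Protein-coding hosts held 3163 of them and lncRNA hosts 70. Exon, intron and untranslated region positions were not assigned, because the annotation used here gives only the ends of genes. The scanner files name mm9 for the array as a whole, but the circRNA names follow GRCm38. Of 214 probes whose last 24 bases matched a single RefSeq promoter window of GRCm38, 212 lay on the chromosome and strand of their name with the junction inside the probe.

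Each circRNA was read by a 60-base probe meant to cross the back-splice junction. Where the junction could be placed, the donor end of the circle lay at the 5' side of the probe and its start at the 3' side. For most members the crossing itself was not checked. The junction could be placed exactly in 104 members. It lay after base 9 in 63 of these and between base 9 and base 38 in all of them, so most of such a probe lies on one side of the junction. Probes of neighbouring circles show how the arrangement works. In the following probes from the lncRNA gene Pvt1 and from Cdyl, which encodes a chromodomain protein, capitals mark the donor side. Each pair differs only by a few bases at the ends of the circle.
Pvt1, chr15:62107148-62107465, plus strand: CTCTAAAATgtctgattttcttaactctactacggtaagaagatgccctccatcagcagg
Pvt1, chr15:62107148-62107467, plus strand: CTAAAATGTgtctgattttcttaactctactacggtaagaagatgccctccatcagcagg
Cdyl, chr13:35815909-35816575, plus strand: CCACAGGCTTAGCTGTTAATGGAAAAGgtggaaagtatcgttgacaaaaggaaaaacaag
Cdyl, chr13:35815907-35816578, plus strand: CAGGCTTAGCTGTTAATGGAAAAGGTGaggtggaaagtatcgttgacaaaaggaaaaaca

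In the Pvt1 probes the acceptor side of 51 bases is identical, and a linear RNA of that exon would share those bases. No step that removes linear RNA, such as RNase R digestion, is named in the labels, so how much of a probe's signal comes from linear RNA was not tested. Circles shorter than the probe gave a different picture: all 26 members of under 60 nt had probes that ran round the circle and began to repeat. The 2 probes below belong to circles of 51 nt, and capitals mark the 9 bases that repeat the start of the probe.
H1f2, chr13:23739398-23739448, plus strand: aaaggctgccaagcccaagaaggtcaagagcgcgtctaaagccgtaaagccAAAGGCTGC
Cdc42bpb, chr12:111321522-111321572, plus strand: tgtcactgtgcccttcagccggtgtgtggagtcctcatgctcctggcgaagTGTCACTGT

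Members are not independent of each other. On the same strand, 551 overlapped another member, 180 shared their acceptor and 201 their donor with another member, and 872 shared the acceptor with some circRNA of any span.

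Levels are given as the log2 of the array's processed signal over that array's 75th percentile, so a level of 0 equals the 75th percentile and a difference of 1 is a doubling. Testing required a signal well above background on 4 or more arrays, which 3314 of the 3484 members (95.1%) had. The 170 others were not tested, and 91 of them were above background on no array. Among those tested, 3199 were above background on all 8 arrays, 4 on no control array and 5 on no contusion array. These last 9 passed only through the group in which they were high. Array medians of the members lay between -1.07 and -0.997 in controls and between -1.05 and -0.999 after contusion, so the groups overlapped.

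Short circRNAs changed in both directions after contusion. In a limma fit over all 89087 features, with Benjamini-Hochberg adjustment and a threshold of 0.05, 617 members rose (18.6%) and 739 fell (22.3%), 40.9% in all. Over all features the same rule called 14.7% higher and 23.9% lower, 38.6% in all, and over the 32301 longer circRNAs tested 16% higher and 26.1% lower, 42.1% in all. The share of members called was therefore near the background. Groups did not overlap in 1400 members (42.2%), against 38.7% of all features, 43.9% of longer circRNAs and 51.8% of mRNAs. A called difference of at least 2-fold upwards was seen in 109 tested members (3.29%), against 3.36% of all features and 2.61% of longer circRNAs. Downwards it was seen in 15 (0.453%), against 1.48% and 0.61%.

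The balance of directions varied with span. The median difference was -0.003 for members (quartiles -0.24 and 0.23), and it was -0.005, -0.07 and -0.17 for the classes of 1 to 10 kb, 10 to 50 kb and 50 kb or more. Correspondingly, the share of circRNAs called lower was 22.3%, 21.1%, 27.5% and 37.6% from the shortest to the longest class. Members were thus near the class of 1 to 10 kb, and shares called lower were higher in the longer classes. These are descriptions of 4 classes on the same arrays, without a test. At the limit itself, members with a span of 900 to 999 bases had a median difference of 0.02 (47 higher and 53 lower of 227), and circRNAs with a span of 1000 to 1099 had 0.04 (57 higher and 41 lower of 252).

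**Figure D1:**
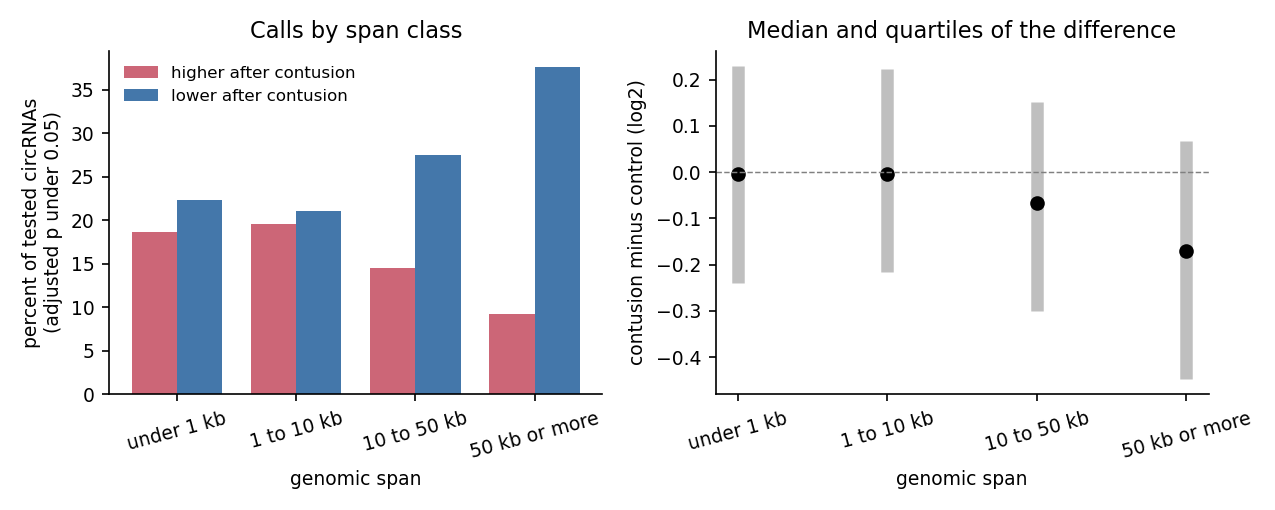
Left, percent of tested circRNAs called higher (red) or lower (blue) after contusion in each class of genomic span; right, the median (point) and quartiles (bar) of the log2 difference in each class. Members (under 1 kb) were called higher in 18.6% and lower in 22.3%, and the share called lower reached 37.6% at 50 kb or more.

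The split of directions depended on the scaling. With each array scaled on the 75th percentile of its circRNA probes alone, 763 members were higher and 609 lower, which moved the share of calls that were higher from 45.5% to 55.6%. Skeletal muscle marker mRNAs were high on contusion arrays 1 and 2 (mean levels of 3.72 and 1.96 over 9 markers) against -1.55 to 0.57 on control arrays and -0.82 to -0.81 on contusion arrays 3 and 4. Without contusion arrays 1 and 2, 473 members rose and 558 fell. The arrays lay on 2 slides, the first with controls 2 to 4 and contusion 1 and the second with control 1 and contusions 2 to 4. Within the slides the median difference of members was -0.03 and -0.04.

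Among the shortest circles more rose than fell. Of 87 tested circles of up to 100 nt, 28 rose and 4 fell, beside 18.6% higher and 22.3% lower of all members and 14.7% and 23.9% of all features. Some of these circles overlap or share a host, so the counts are descriptions without a test. In circles of 101 to 200 nt, 115 rose and 168 fell of 668, and in those of 201 to 300 nt 74 rose and 106 fell of 402. The counts were 131 and 160 of 737 at 301 to 500 nt, 103 and 132 of 634 at 501 to 700 nt, and 166 and 169 of 786 at 701 to 1000 nt.

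Strand set the short circRNAs apart from the long ones. Of 2582 members whose host strand was known, 427 (16.5%) lay on the strand opposite to the host, against 198 of 26149 longer circRNAs (0.757%). The share fell with circle length, from 46.7% at 51 to 59 nt and 47.8% at 60 to 100 nt to 33% at 101 to 200 nt, 11.7% at 301 to 500 nt and 6.16% at 701 to 1000 nt. It was 1.3% in circRNAs of 1 to 10 kb and 0.234% at 50 kb or more. These are counts of the array's content, fixed before any sample was measured.

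**Figure D2:**
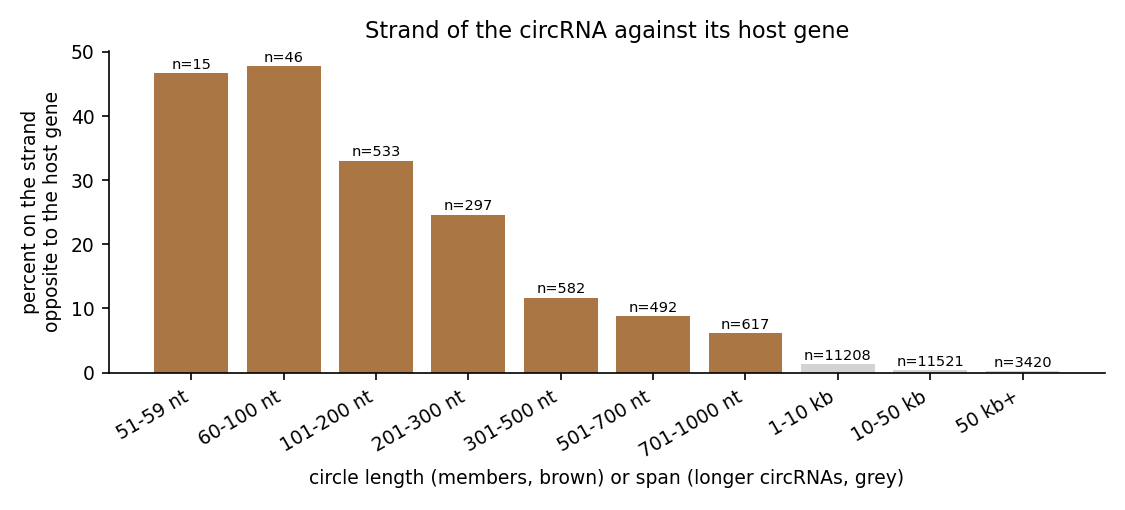
Percent of circRNAs on the strand opposite to their host gene, by circle length for members (brown) and by span for longer circRNAs (grey); n is the number with a known host strand. Bars fall from 46.7% and 47.8% at up to 100 nt to 6.16% at 701 to 1000 nt and 0.234% at 50 kb or more.

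Of 383 opposite-strand members tested, 42 rose and 80 fell (31.9% called, against 41.2% of 2068 on the host strand and 38.6% of all features). The 2 sets also differed in median level (-2.16 on the opposite strand, -0.86 on the host strand) and median circle length (210 and 478.5 nt). Differences of opposite-strand members ran alongside those of the host mRNA, with a correlation of 0.66 over 370 members against 0.80 over 2003 same-strand members. Members of a host share its mRNA value and the same arrays, so these are descriptions. Of 88 opposite-strand members called together with their host mRNA, 85 moved in the same direction as the mRNA, beside 655 of 684 same-strand members.

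Examples from both directions show the same pattern, and they were chosen after their values were seen as the largest called differences on the opposite strand. A circle of 102 nt opposite to Vim, the intermediate filament of reactive astrocytes and mesenchymal cells, lay at chr2:13574334-13574435. Its level was 0.08, -0.39, -0.21 and -0.72 on control arrays 1 to 4 and 1.83, 1.87, 1.83 and 1.96 on contusion arrays 1 to 4. All contusion arrays were above all control arrays, and the difference was 2.18 ± 0.16 (SE), or 4.53-fold (adjusted p = 0.00011), beside 1.99 ± 0.31 for Vim mRNA. One of 169 nt opposite to Flna, which encodes the actin crosslinker filamin A, rose by 1.52 ± 0.14 (adjusted p = 2e-04), beside 1.53 ± 0.11 for Flna mRNA. Opposite to Rab3c, a synaptic vesicle GTPase, a circle of 429 nt fell by 1.04 on the log2 scale ± 0.11 (adjusted p = 0.000279), beside -1.01 ± 0.11 for the mRNA. The largest fall on the opposite strand belonged to Slc6a11, the GABA transporter GAT-3 of astrocytes, at chr6:114247773-114248616. Levels there were -0.16, -0.39, -0.30 and -0.16 in controls and -1.67, -1.56, -1.53 and -1.39 after contusion. No contusion array came near the controls, and the difference was -1.28 ± 0.09 (adjusted p = 9.63e-05), beside -1.54 ± 0.10 for Slc6a11 mRNA. The Flna probe was as follows.
Flna, chrX:74234757-74234925, plus strand: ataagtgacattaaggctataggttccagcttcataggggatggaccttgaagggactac

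The largest increases belonged to genes of dividing cells, phagocytes, matrix and the cytoskeleton. The 12 largest called, non-overlapping differences ranged from 2.65 to 4.40. The probes shown for the Top2a circles and for Ccna2 carry no capitals, because their junction could not be placed exactly.
Top2a, chr11:99000768-99001441, minus strand: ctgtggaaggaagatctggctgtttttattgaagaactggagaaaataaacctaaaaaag
Top2a, chr11:98995244-98995973, minus strand: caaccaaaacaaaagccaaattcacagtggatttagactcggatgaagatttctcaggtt
Ccna2, chr3:36566541-36567113, minus strand: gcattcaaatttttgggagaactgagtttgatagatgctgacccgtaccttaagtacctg

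Top2a encodes topoisomerase II alpha, which untangles chromosomes in dividing cells. Its circle of 674 nt had levels of -2.10, -4.20, -3.15 and -6.24 in controls 1 to 4 and of 0.58, -0.02, 0.58 and 0.75 in contusions 1 to 4. Controls spread widely but all lay below all contusion arrays, and the difference was 4.40 ± 0.77 (21.0-fold, adjusted p = 0.00264), beside 4.18 ± 0.54 for Top2a mRNA. The control value of -6.24 was not well above background. A second Top2a circle, of 730 nt, read -1.66, -3.83, -2.73 and -4.71 in controls and 1.01, 0.54, 1.19 and 1.29 after contusion, a difference of 4.24 ± 0.59 (adjusted p = 0.000851). Both Top2a circles followed the same order of arrays, with control 1 the highest of the controls and control 4 the lowest.

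Ccna2, cyclin A2, drives S phase and entry into mitosis. The circle of 573 nt stood at -3.12, -4.94, -4.00 and -4.71 in controls and -0.46, -1.01, -0.26 and -0.24 after contusion, with no overlap. The difference was 3.70 ± 0.39 (adjusted p = 0.000277), beside 3.19 ± 0.34 for the mRNA. Kinases and motors of mitosis followed. For Aurkb (Aurora kinase B, 640 nt) no control array was well above background, and contusion levels were -3.37, -3.84, -3.09 and -3.10, at least 4.34-fold higher than the detection level of the control arrays (adjusted p = 0.000179). That bound sets the mean of the bright group against the lowest signal called well above background on each array of the dim group, or the probe's own value where higher. Members below background throughout 1 group entered the test only through the other group, so the adjusted p beside a bound is the fit's value and adds no support. Kif20a, a kinesin of cytokinesis, had a circle of 299 nt at least 5.03-fold higher (adjusted p = 0.000317), again with no control array above background. A circle of 467 nt within both Kif20a and Cdc23 rose by 3.19 ± 0.28. Kif15, a spindle kinesin, was at least 2.18-fold higher in its circle of 874 nt (adjusted p = 0.000375) and was below background on all control arrays.

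Thbs1 encodes thrombospondin 1, a secreted matrix glycoprotein. Its circle at chr2:118123371-118124225 had levels of -3.12, -4.06, -3.63 and -3.52 in controls and -0.25, -0.34, -0.84 and 0.45 after contusion. No array of one group reached the other, and the difference was 3.34 ± 0.29 (adjusted p = 0.000157), beside 3.56 ± 0.24 for the mRNA. Cd84, a receptor of the SLAM family on leukocytes, rose by 2.82 ± 0.34 in its circle of 743 nt. Stab1, a scavenger receptor of macrophages and endothelium, rose by 2.76 ± 0.19 from controls at -2.30, -2.74, -2.42 and -3.19 to 0.20, -0.15, 0.11 and 0.25. S100a4, a calcium-binding protein of motile cells, read 1.75, 1.43, 2.30 and 0.74 in controls and 4.36, 4.58, 4.37 and 4.14 after contusion, and rose by 2.81 ± 0.29 (adjusted p = 0.000275). The Vim circle of 861 nt on the host strand rose by 2.65 ± 0.29 (adjusted p = 0.000321), from 1.85, 1.19, 1.66 and 0.36 to 3.91, 3.92, 3.99 and 3.85.

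The bulk tissue holds many cell types, and a change in the number of cells of a type cannot be told apart from a change of RNA per cell. Macrophage marker mRNAs were higher for 10 of 10, with mean levels of 0.13 to 1.88 in controls and 4.23 to 4.61 after contusion. Markers of dividing cells were higher for 9 of 10, with mean levels of -1.08 to 0.40 and 2.23 to 2.89. Neuron markers were lower for 10 of 10, with mean levels of 6.18 to 6.36 in controls and 5.42 to 5.69. Every marker of these 3 lists passed the filter on dim probes. Their part in the differences of circRNAs was not tested.

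**Figure D3:**
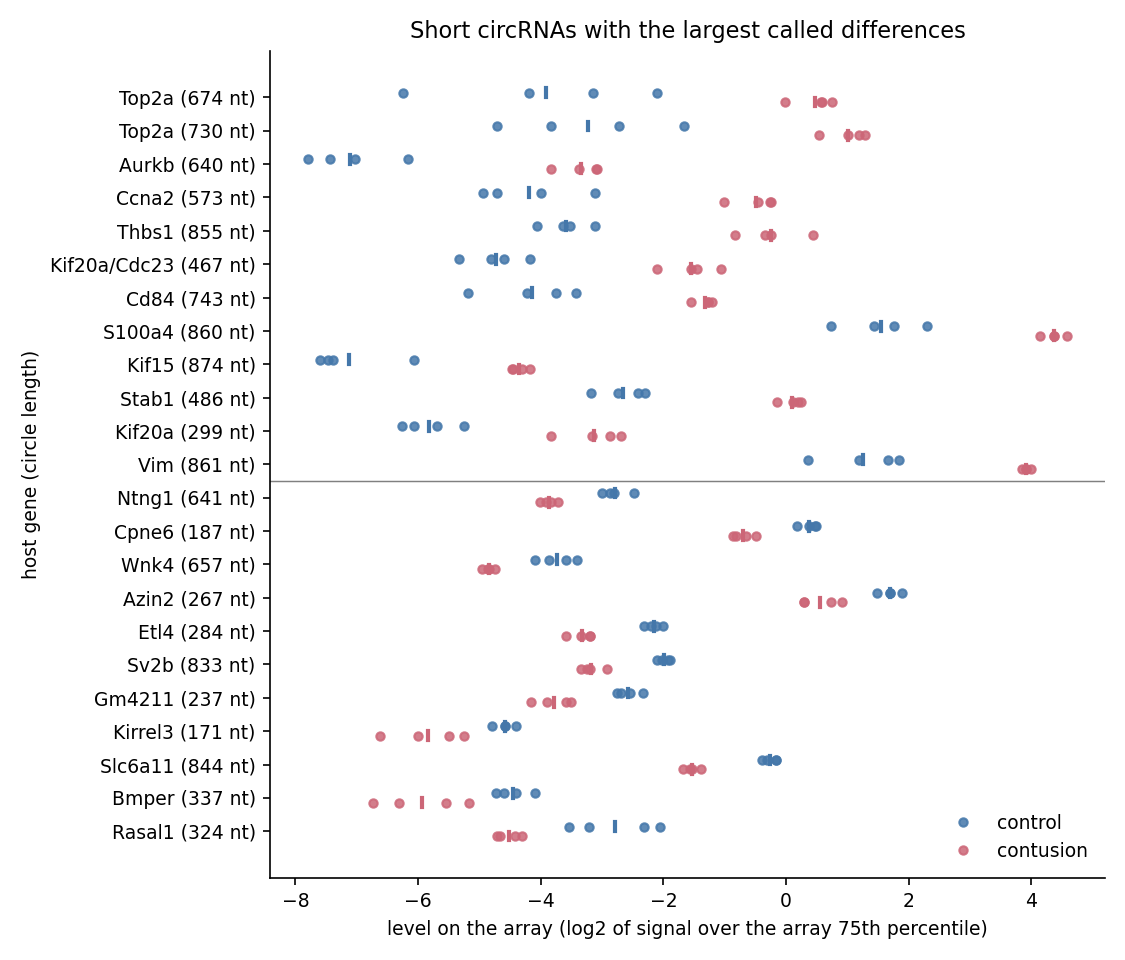
Level on each array of the 12 short circRNAs with the largest called increase and 11 of the 12 with the largest called decrease, whose groups did not overlap; points are arrays (blue control, red contusion, 4 each), short lines are means, and labels give the host and the circle length. Increases run from 2.65 to 4.40 and decreases from -1.08 to -1.74 on the log2 scale, and some points, such as those of Aurkb and Kif15 in controls, lie below background.

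Decreases were smaller, from -1.08 to -1.74 for the 12 largest. Rasal1, a GTPase-activating protein for Ras, led with a circle of 324 nt. Levels were -2.32, -2.06, -3.54 and -3.20 in controls and -4.42, -4.67, -4.30 and -4.70 after contusion. Controls fell into a higher and a lower pair, all above every contusion array, and the difference was -1.74 ± 0.32 (3.35-fold lower, adjusted p = 0.00313), beside -1.06 ± 0.15 for the mRNA. Sv2b encodes a glycoprotein of synaptic vesicles, and its circle of 833 nt read -2.10, -1.92, -2.02 and -1.89 in controls and -2.92, -3.20, -3.24 and -3.34 after contusion. Replicates were tight, and the fall was -1.19 ± 0.10 (adjusted p = 0.000156), beside -1.07 ± 0.08 for Sv2b mRNA. Their probes are given here.
Rasal1, chr5:120654806-120655129, plus strand: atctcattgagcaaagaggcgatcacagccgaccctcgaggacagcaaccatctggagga
Sv2b, chr7:75206090-75206922, minus strand: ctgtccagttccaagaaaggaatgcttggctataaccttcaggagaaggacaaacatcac

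Circles that dropped below background after contusion have only a bound. They passed the filter only through the controls, so the adjusted p beside each bound adds no support. Kirrel3, a synaptic adhesion molecule, was at least 1.57-fold lower in its circle of 171 nt (adjusted p = 0.00754), and Bmper, a secreted regulator of BMP signalling, at least 1.72-fold lower in its circle of 337 nt (adjusted p = 0.00801).

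Other falls were Ntng1 (netrin G1, an axonal membrane protein, -1.08 ± 0.12), Cpne6 (a copine of brain, -1.09 ± 0.11), Wnk4 (a kinase that regulates ion cotransporters, -1.11 ± 0.15), Etl4 (-1.17 ± 0.11) and the lncRNA gene Gm4211 (-1.20 ± 0.16). Azin2, which stabilises ornithine decarboxylase by binding its antizyme, differed from its host. Its circle at chr4:128947419-128947685 stood at 1.48, 1.89, 1.70 and 1.70 in controls and 0.73, 0.91, 0.29 and 0.30 after contusion. The groups did not overlap and the fall was -1.14 ± 0.16 (adjusted p = 0.00091), while Azin2 mRNA differed by 0.16 ± 0.08 (adjusted p = 0.14). Relative to the mRNA the circle fell by 1.30 on the log2 scale ± 0.13 (adjusted p = 0.000479).

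The members with the highest signal were named as well. Hba-a1, a haemoglobin alpha chain, rose by 1.10 ± 0.27 (adjusted p = 0.0135), from 7.66, 7.87, 8.25 and 7.22 to 8.70, 9.41, 8.32 and 8.96. Contusion 3 was barely above the highest control, and the call was lost without contusions 1 and 2 (adjusted p = 0.0765). Red blood cell marker mRNAs were higher for 5 of 7, with mean levels of 3.52 to 4.60 in controls and 4.55 to 5.59 after contusion. Their part in the Hba-a1 value was not tested. Gnas, the stimulatory G protein alpha subunit, fell by 0.43 on the log2 scale ± 0.08 (adjusted p = 0.0026), from 8.45 to 8.62 in controls to 7.94 to 8.20. Circles of Malat1 (8.16 ± 0.19 SD in controls and 8.24 ± 0.11 SD after contusion, n = 4 each) and of Cox6a1, a subunit of cytochrome c oxidase (8.13 ± 0.11 and 8.10 ± 0.03), did not pass the test, with differences of 0.08 ± 0.11 (SE, adjusted p = 0.597) and -0.03 ± 0.07 (adjusted p = 0.805). For a circle of 99 nt at chr17:39845855-39845953, in no gene of the table, the levels were 7.96 ± 0.06 and 8.02 ± 0.07 and the difference was 0.06 ± 0.06 (adjusted p = 0.486). The Malat1 probe read as follows.
Malat1, chr19:5802209-5802362, minus strand: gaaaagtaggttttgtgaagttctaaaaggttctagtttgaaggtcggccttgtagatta

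Among the 3 shortest circles, all of 51 nt, the 2 on the host strand rose. H1f2, a linker histone made in S phase, rose by 1.16 ± 0.10 (adjusted p = 0.000162), from 1.25, 1.17, 1.27 and 0.84 to 2.29, 2.28, 2.32 and 2.27. Mob3a, a kinase regulator, rose by 0.27 ± 0.06 (adjusted p = 0.00827). The circle opposite to Cdc42bpb, a kinase of the actin cytoskeleton, differed by -0.08 ± 0.08 (adjusted p = 0.473).

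The locus of Cdr1 held 7 members, all on the strand opposite to Cdr1. That strand is transcribed into Cdr1as, a circRNA of neurons known for its many binding sites for the microRNA miR-7. The seed of mature miR-7a-5p (RefSeq, bases 2 to 8 in capitals) pairs with GTCTTCC in the DNA sequence of a target. Each of the 7 probes held 3 copies of GTCTTCC, marked by capitals in the probes below, and no other member held more than 1.
mmu-miR-7a-5p: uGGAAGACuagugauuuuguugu
Cdr1 locus, chrX:61183680-61183789, plus strand: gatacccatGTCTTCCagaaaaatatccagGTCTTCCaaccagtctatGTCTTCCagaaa
Cdr1 locus, chrX:61183701-61183843, plus strand: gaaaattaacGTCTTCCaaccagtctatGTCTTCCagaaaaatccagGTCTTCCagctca
Cdr1 locus, chrX:61183738-61183843, plus strand: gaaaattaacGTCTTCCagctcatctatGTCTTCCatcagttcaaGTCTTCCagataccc
Cdr1 locus, chrX:61183273-61183379, plus strand: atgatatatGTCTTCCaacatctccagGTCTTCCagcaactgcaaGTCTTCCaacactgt

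GTCTTCC was found in 18 members (0.517%) and in 185 of all circRNA probes (0.489%), and its reverse complement GGAAGAC in 25 members (0.718%) and 380 of all circRNA probes (1%). A match of these letters is a description and not a binding site. Mean levels of the 7 circles lay between 7.47 and 7.93, and all 7 fell. The circle of 143 nt read 8.01, 8.32, 8.14 and 8.15 in controls and 7.65, 7.85, 7.74 and 7.57 after contusion, a difference of -0.45 ± 0.09 (adjusted p = 0.00495). That of 126 nt, at chrX:61183273-61183398, read 7.67, 8.01, 7.85 and 7.81 in controls and 7.33, 7.16, 7.21 and 6.92 after contusion, a difference of -0.68 ± 0.11 (adjusted p = 0.00165). In both circles every contusion array lay below every control array. The probes overlap and share their repeats, so the 7 are not independent readings. The Cdr1 mRNA probe differed by -0.21 ± 0.09 (adjusted p = 0.0834). Relative to it, the circles of 126 and 108 nt (the latter at chrX:61183291-61183398) were lower by -0.46 ± 0.10 (adjusted p = 0.0184) and -0.41 ± 0.11 (adjusted p = 0.0444), and the other 5 did not pass.

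Several hosts held many tested members. Map1b and Kif1a were, with Malat1, the hosts with the most, and the other hosts named here and in the next paragraph were chosen after their values were seen. Over all members 18.6% were higher and 22.3% lower, and over all features 14.7% and 23.9%. Map1b, a microtubule-associated protein of growing axons, held 21 members, of which 18 fell, with differences of -0.58 to -0.19, and 11 lay on the opposite strand. Map1b mRNA fell by 0.58 on the log2 scale ± 0.10 (adjusted p = 0.00222). Kif1a, a motor for synaptic vesicle precursors, held 15 members and all fell (-0.64 to -0.26), as did its mRNA (-0.62 ± 0.08). Map1a, a microtubule-associated protein of mature neurons, had 6 of 6 lower (-0.66 to -0.31). Within Flna, 8 of 8 rose by 0.88 to 1.85, and 5 of 5 rose within Myh9, the non-muscle myosin heavy chain (1.35 to 1.58), within Ehbp1l1 (0.72 to 1.51) and within Lrp1, an endocytic receptor (0.40 to 0.58). Other hosts of similar size were mixed: 1 of 10 was called within Col3a1 (higher), 6 of 9 within Ank2 and 4 of 7 within Srrm2 (lower), and 0 of 7 within Cpsf1.

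Malat1, a nuclear lncRNA, held the most members. None of its 29 was called by limma, with differences between -0.16 and 0.48 and levels between -4.97 and 8.20. Likewise none of 14 was called for Dync1h1, the dynein heavy chain (-0.28 to 0.06). Rpph1, the RNA of ribonuclease P, had 4 of 6 higher (0.20 to 0.47).

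**Figure D4:**
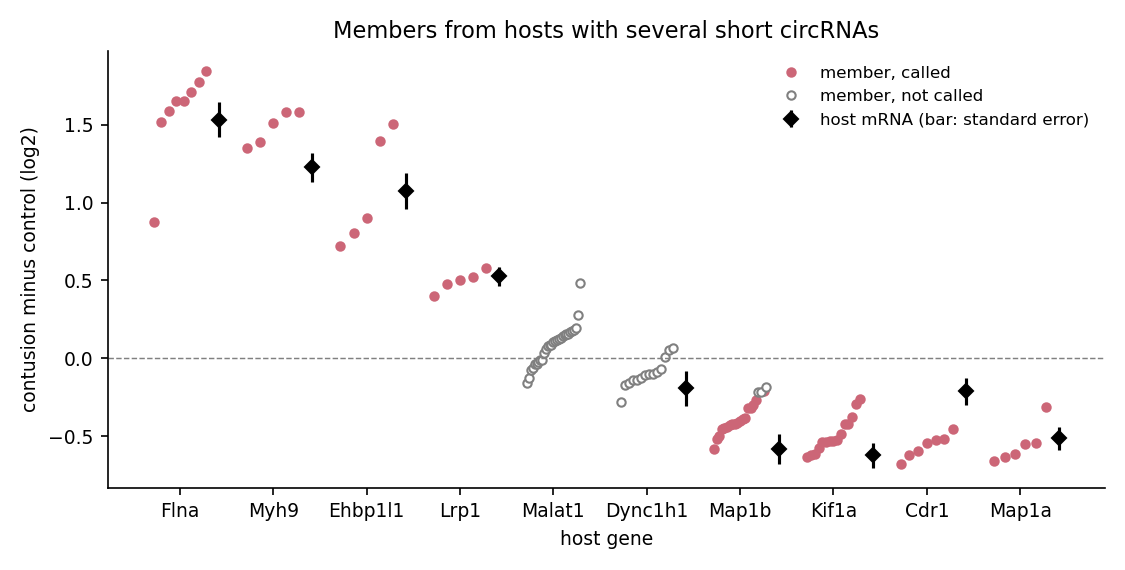
Difference between contusion and control for every tested member of 10 hosts with several short circRNAs (filled red, adjusted p under 0.05; open grey, not called) and for the host mRNA where it was tested (black diamond, bar: standard error). All members of Flna, Myh9, Ehbp1l1 and Lrp1 lie above 0, all of Kif1a, Cdr1 and Map1a below 0, and none of the 29 members of Malat1 was called. Flna, Myh9, Ehbp1l1, Lrp1, Dync1h1 and Map1a were chosen after their values were seen.

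Hosts of circRNAs that have been studied in detail gave 36 tested members from 19 hosts, of which 6 rose and 14 fell. The share called was 55.6%, against 40.9% of all members and 38.6% of all features, and the median difference was -0.11, against -0.003 over all members. The 14 that fell include the 7 circles of the Cdr1 locus, so the share is not one of independent genes. Members of the same host are not independent readings, and this share is a description without a test. The Cdyl circle of 667 nt, whose probe is shown above, read 1.89, 1.57, 1.65 and 1.53 in controls and 0.89, 0.99, 1.05 and 1.12 after contusion. Groups were clearly apart, with a difference of -0.65 ± 0.10 (adjusted p = 0.00113), whereas Cdyl mRNA rose by 0.27 ± 0.08 (adjusted p = 0.021). Relative to the mRNA, that circle was lower by -0.92 ± 0.12 (adjusted p = 0.0016). The neighbouring circle of 672 nt gave -0.63 ± 0.13 (adjusted p = 0.00556). Zfp609, which encodes a zinc finger protein, fell in both its circles (-0.45 ± 0.07 and -0.44 ± 0.09), beside -0.34 ± 0.07 for its mRNA. Nfix, a transcription factor of neural stem cells and muscle, had levels of 1.89, 1.80, 1.75 and 1.74 in controls and 1.98, 1.86, 1.90 and 1.77 after contusion, which overlapped (0.08 ± 0.07, adjusted p = 0.397).

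Of 4 Pvt1 circles, 3 rose. The circle of 318 nt rose by 0.37 ± 0.07 (adjusted p = 0.00432), from -1.87, -1.87, -1.87 and -1.89 to -1.48, -1.63, -1.56 and -1.36. Its neighbour of 320 nt, with the same acceptor, differed by 0.20 ± 0.07 (adjusted p = 0.0589), which passed when contusion 1 was left out (adjusted p = 0.0346). The difference between these 2 readings was not tested.

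Members were also grouped by the known cells and functions of their hosts, and the share called in each group is given beside the 40.9% of all members and 38.6% of all features. Of 64 tested members from 38 neuron and synapse genes, none rose and 42 fell (65.6%), with a median difference of -0.48. Kcnh7, a potassium channel of neurons, fell in its circle of 215 nt from 0.05 ± 0.14 to -1.02 ± 0.11 (SD, n = 4 each), with no overlap (difference -1.07 ± 0.09, adjusted p = 0.000156). Among the 38 hosts, the mRNA was lower for 35 and higher for 1. Kinesins, the motors of transport along microtubules and of the spindle, had 22 lower and 2 higher of 32 members of 13 hosts (75%). Of those that were lower, 15 were circles of the single host Kif1a, so the share is not one of independent genes. Kif5c, a neuronal motor, fell in its circle of 102 nt by 0.82 on the log2 scale ± 0.09 (adjusted p = 0.000345), and Kifc2 by 0.87 ± 0.14 (adjusted p = 0.00196). The 2 that rose were circles of the spindle kinesins Kif15 and Kif20a, which passed the filter only through the contusion arrays.

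Cell division genes gave 13 higher and 1 lower of 17 (82.4%). Counts by host keep members that passed the filter only through the contusion arrays, which add no support. The whole set held 4 such members, all called higher, among them those of Aurkb, Kif15 and Kif20a. The member that fell belonged to Cit, citron kinase, which acts in cytokinesis and in neurons (-0.61 ± 0.09, adjusted p = 0.00112, beside -0.77 ± 0.07 for its mRNA). Phagocyte and microglial hosts gave 5 higher of 6 (83.3%) and none lower. Plin2, a lipid droplet coat protein abundant in foamy macrophages, had a circle of 161 nt at 0.42, 0.21, 0.22 and -0.36 in controls and 2.72, 2.67, 2.31 and 2.97 after contusion, a rise of 2.55 ± 0.19 (adjusted p = 0.000123) beside 2.53 ± 0.18 for its mRNA. Extracellular matrix hosts gave 11 higher and none lower of 20 (55%). Fn1, fibronectin, rose by 2.08 ± 0.28 in its circle of 790 nt (adjusted p = 0.000755). Collagens, with 18 members of 5 genes, had 4 higher (22.2%) and a median difference of 0.92. Controls spread widely for them: the called Col1a1 circle read -2.07, -3.11, -1.21 and -2.29 in controls and -1.11, -1.46, -0.86 and -0.51 after contusion, with overlap (1.18 ± 0.38, adjusted p = 0.0386), and without contusion 4 its adjusted p was 0.0981. Fibroblast marker mRNAs likewise differed among controls, at 2.46 to 4.22, against 4.01 to 4.37 after contusion, and 5 of 10 were higher.

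Astrocyte hosts gave 3 higher and 5 lower of 11 (72.7%). The rises included both strands of Vim. Gpc5, a glypican of astrocytes, fell by 0.72 on the log2 scale ± 0.07 (adjusted p = 0.000208), and a circle of 113 nt opposite to Slc1a2, the main glutamate transporter, by 0.85 ± 0.08 (adjusted p = 0.000183). Myelin and oligodendrocyte hosts gave 2 higher and 3 lower of 13 (38.5%), near the background. The 3 that fell are overlapping circles of 1 host, Ugt8a, the enzyme of galactocerebroside synthesis, and include those of 824 nt (-0.45 ± 0.12) and 846 nt (-0.38 ± 0.10). Circles at Olig2 (opposite strand, 0.59 ± 0.14) and Olig1 (0.21 ± 0.06), transcription factors of the oligodendrocyte lineage, rose. The calls of the Ugt8a circles of 824 and 846 nt were lost with the slide as a block (adjusted p of 0.0549 and 0.0579), as was that of Olig1 (0.111). The Olig1 call (adjusted p = 0.0346) was also lost without any one of controls 2, 3 and 4 or contusions 2, 3 and 4, with the highest adjusted p, 0.0912, without contusion 3.

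Regulators of RNA and chromatin followed. RNA binding and splicing hosts gave 9 higher and 13 lower of 79 (27.8%), and chromatin and transcription hosts 9 higher and 13 lower of 93 (23.7%), both shares below those of all members and all features. Ptbp1, a splicing repressor, rose by 1.26 ± 0.13 in its circle of 175 nt (adjusted p = 0.000259), from -1.48, -1.69, -1.45 and -1.79 to -0.60, -0.41, -0.06 and -0.30, while its mRNA differed by -0.12 ± 0.09 (adjusted p = 0.345). Hnrnpu, a nuclear RNA-binding protein, rose by 0.49 ± 0.07 in its circle of 315 nt and Bcor, a corepressor, by 0.54 ± 0.09, also in a circle of 315 nt. Stau2, which carries mRNA into dendrites, fell by 0.75 ± 0.06 (adjusted p = 0.000114), Celf4, a neuronal splicing factor, by 0.79 ± 0.08, and circles of Chd3, a chromatin remodeller, by 0.67 ± 0.09 (499 nt) and 0.61 ± 0.12 (332 nt). Tcf4, a basic helix-loop-helix factor, rose by 0.55 ± 0.07.

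In the remaining families, zinc finger proteins (symbols starting Zfp) had 6 lower and none higher of 31 (19.4%, near the 22.3% of members and 23.9% of all features called lower), and tripartite motif proteins had 1 higher of 8 (12.5%). Solute carriers had 6 higher and 13 lower of 46 (41.3%) and protein tyrosine phosphatases 4 higher and 4 lower of 21 (38.1%), near the background. Ubiquitin-specific proteases had 1 higher and 7 lower of 16 (50%), and axonemal dyneins 1 higher of 1. That dynein circle differed by 1.23 within the first slide and by -0.098 within the second. Usp13, a deubiquitinase, fell by 0.66 on the log2 scale ± 0.08 (adjusted p = 0.000499), beside -0.07 ± 0.06 for its mRNA. Muscle hosts had 5 higher of 19 (26.3%). The called Ttn circle, from the giant sarcomere protein titin, read -4.69, -5.03, -4.77 and -4.73 in controls and -2.09, -3.93, -3.15 and -2.80 after contusion. It was the only 1 called of 10 tested Ttn circles, beside 1.54 ± 1.05 for Ttn mRNA (adjusted p = 0.287). None of the 9 muscle marker mRNAs was called. Members of muscle hosts had a median difference of 1.15 within the first slide and 0.07 within the second. The part of muscle tissue in these values was not tested. For Des, the muscle intermediate filament desmin, no control array was above background, contusion levels were -3.31, -4.14, -4.73 and -4.29, and the difference was at least 2.55-fold (adjusted p = 0.00189). The Des circle passed the filter only through the contusion arrays, so that adjusted p adds no support.

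Whether a circle changed with the mRNA of its host was tested on the difference between both within each array. Each host mRNA was read by its brightest probe alone, so other probes of the same mRNA do not enter these values. The pairs include 370 members on the strand opposite to the host, for which the mRNA is not the linear RNA of the same strand. In 2977 members with a measured host mRNA, the contusion differences of circle and mRNA had a correlation of 0.80 over members, which share arrays and in part hosts. Of 974 in which both were called, 937 (96.2%) moved the same way. The circle differed from its mRNA in 391 members (13.1%), rising relative to it in 253 and falling in 138. For members known to lie on the host strand the share was 12.9%. Among all 33920 circRNAs with a host mRNA the same test called 12.6%, with 7.18% above and 5.38% below, so the members' share was again near the background. The count depended on single arrays: the number above the mRNA was 393 without control 1, 152 without control 2, 150 without control 4 and 162 without contusion 4. It also depended on the processing, with 759 above and 421 below (39.6%) under normexp correction and quantile scaling, and 168 above with the slide as a block. The median of members relative to their mRNA was 0.06 overall but 0.04 on the first slide and -0.03 on the second.

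**Figure D5:**
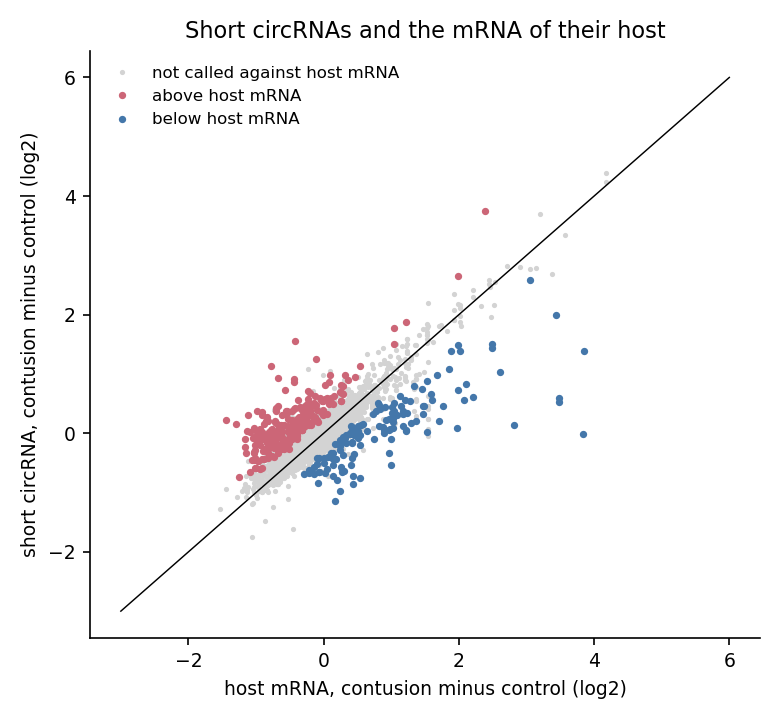
Contusion minus control difference of each of 2977 short circRNAs (vertical) against that of the mRNA of its host (horizontal), both log2; the line marks equal differences. Red points are the 253 members called above their mRNA and blue points the 138 called below it, and most members lie near the line.

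The members farthest above their mRNA mostly combined a stable or rising circle with a falling mRNA. Lrrfip1, a regulator of transcription and nucleic acid sensing, had a circle of 126 nt at chr1:91115642-91115767 that read -3.43, -3.81, -3.56 and -4.21 in controls and -2.19, -2.33, -2.13 and -2.12 after contusion. It rose by 1.56 ± 0.16 (adjusted p = 0.000261) while the mRNA fell by 0.42 ± 0.09, a relative difference of 1.98 ± 0.19 (adjusted p = 0.000382). Runx1t1, a transcriptional corepressor, rose by 0.93 ± 0.15 in its circle of 345 nt against -0.68 ± 0.11 for the mRNA, 1.61 ± 0.22 in relative terms (adjusted p = 0.00174). Asic4, an acid-sensing channel subunit, stood 1.92 ± 0.33 above its mRNA (adjusted p = 0.00487), but contusion 1 at -2.78 was far above the other contusion arrays at -3.92 to -4.31, and the relative difference was 3.06 on the first slide and 0.81 on the second.

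The other members named above their mRNA come from hosts whose mRNA fell. Relative differences were 1.67 ± 0.25 for Kcng3, a potassium channel subunit, 1.45 ± 0.22 for Grm8, a metabotropic glutamate receptor, whose circle lies on the opposite strand, and 1.43 ± 0.33 for Prmt8, a brain arginine methyltransferase. None of these circles itself was called. The call for Prmt8 (adjusted p = 0.0193) was lost without any one of control 2, control 3, control 4 or contusion 2, with adjusted p values between 0.0506 and 0.0584.

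Members farthest below their mRNA came from hosts whose mRNA rose steeply, several of them genes of the cell cycle. Uhrf1, which maintains DNA methylation at replication, showed the largest gap. Its circle of 355 nt at chr17:56309251-56309605 read 0.45, 0.18, 0.28 and 0.23 in controls and 0.28, 0.37, 0.39 and 0.04 after contusion, with full overlap (-0.02 ± 0.10, adjusted p = 0.92). The mRNA rose by 3.84 ± 0.28, and the circle was lower relative to it by -3.85 ± 0.24 (adjusted p = 7.51e-05). Troap, a spindle protein, had 2 circles that rose by 0.53 ± 0.11 and 0.59 ± 0.09 against 3.48 ± 0.44 for the mRNA. Cdca5, sororin, which protects sister chromatid cohesion, rose by 1.38 ± 0.14 in its circle against 3.85 ± 0.36 for the mRNA. Cdc6, which licenses replication origins, differed by 0.09 ± 0.10 in its circle against 1.97 ± 0.14. Ltbp2, a matrix protein that binds fibrillin, differed by 0.14 ± 0.10 against 2.81 ± 0.50 for the mRNA.

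Members were last set against the longer circRNAs of the same host, which removes what the host's circles have in common. In 2292 members of 1525 hosts with tested longer circles, 226 differed (9.86%), 115 upwards (5.02%) and 111 downwards (4.84%), with a median of -0.0008. Here the comparison holds members only, so these shares are their own background. The upward count was 76 without control 2 and 74 without control 4, and the downward count 72 without control 4, 73 without contusion 2 and 72 without contusion 4. With normexp and quantile scaling 176 were above and 163 below (14.8%), and with the slide as a block 74 and 71 (6.33%).

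Above the longer circles of their host stood Lrrfip1 (1.62 ± 0.17 against 27 longer circles) and Runx1t1 (1.37 ± 0.16 against 9). Ankrd33b, of the ankyrin repeat family, was set against 2. The Ankrd33b circle of 146 nt rose from -4.08, -4.43, -3.30 and -4.52 to -2.39, -1.98, -2.26 and -2.20, by 1.88 ± 0.25, which was 1.43 ± 0.22 more than its longer circles (adjusted p = 0.00535). Aurkb and Kif20a were called too, but were below background on every control array, so no size is given, and neither call was held with normexp and quantile scaling.

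Below the longer circles stood Uhrf1 (-3.63 ± 0.25 against 2, adjusted p = 0.00043), Bcar3 (-1.75 ± 0.19 against 1, adjusted p = 0.00154) and, on the opposite strand of its host, Timp2 (-1.02 ± 0.09 against 3, adjusted p = 0.000524). Bcar3, an adaptor of integrin and Src signalling, read 0.86, 0.66, 0.87 and 1.05 in controls and 0.01, -0.19, 0.00 and -0.26 after contusion, a fall of -0.97 ± 0.10 (adjusted p = 0.00029) beside 0.25 ± 0.17 for its mRNA. Timp2, an inhibitor of metalloproteinases, differed by -0.14 ± 0.07 in the circle itself (adjusted p = 0.135). Neurl1b, a ubiquitin ligase of Notch ligands, was lower relative to 1 longer circle by -1.39 ± 0.29 (adjusted p = 0.0203), which was lost without contusion 3 (0.0546) or contusion 4 (0.0587) and was 0.10 with normexp and quantile scaling (adjusted p = 0.517). Kirrel3 was also called, but was below background on every contusion array, so no size is given, and its call was lost without any one of 6 of the 8 arrays.

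Proteins that form and remove circRNAs were examined through their mRNAs. RNA-binding proteins such as Qk and Mbnl1 bring the ends of an exon together, RNA editing and helicases oppose pairing of the flanking introns, and endonucleases degrade circles. Of 35 such mRNAs tested, 10 rose and 8 fell, against 25.8% higher and 25.4% lower of all 18146 mRNAs tested. The helicase Ddx39a, which takes part in the nuclear export of short circRNAs, rose by 0.98 ± 0.08 (adjusted p = 0.000127), from 1.92 ± 0.06 (SD, n = 4) to 2.90 ± 0.12. Its paralog Ddx39b, which serves long circRNAs, rose by 0.20 ± 0.05 (adjusted p = 0.0156). Eif2ak2, the double-stranded RNA kinase PKR that circRNAs can restrain, rose by 0.69 ± 0.11 (adjusted p = 0.00196), and the splicing factor Hnrnpm by 0.39 ± 0.09 (adjusted p = 0.0105).

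Editing enzymes moved the other way. Adarb1 fell by 0.74 on the log2 scale ± 0.11 (adjusted p = 0.00126) and Adar by 0.54 ± 0.08 (adjusted p = 0.000893). G3bp2, a stress granule protein, fell by 0.62 ± 0.13 (adjusted p = 0.0061) and the splicing factor Rbfox2 by 0.57 ± 0.09 (adjusted p = 0.00153). Qk differed by 0.01 ± 0.07 (adjusted p = 0.945) and Mbnl1 by -0.10 ± 0.07 (adjusted p = 0.338). The number that fell was 5 without control 2, 5 without control 4 and 5 with the slide as a block.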

How the data were processed

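Total RNA of 8 spinal cords was labelled with Cy3 and hybridised to Agilent arrays, per the labels' protocols. The deposited scanner files hold 150305 non-control probes with intensity values; per the file headers they are background-corrected, processed signals, and per the submitters' processing notes Feature Extraction 10.7 and limma were used. The authors' deposited table of log2 values served as an alternative. Processed signals were divided by the array's 75th percentile and put on the log2 scale, outlier spots were left out, and a probe was kept if 4 or more of the 8 arrays flagged it well above background, with the brightest probe for each feature. Control and contusion were compared with limma 3.58.1 (lmFit, eBayes) in R 4.3.3 over all 89087 features, with Benjamini-Hochberg adjustment; errors are standard errors of the fit. Circle minus host mRNA, and circle minus the mean of the host's longer circRNAs, were fitted likewise. The 75th percentiles were 203 to 252 units and 72.9% to 75.4% of probes were well above background on each array; no spot was saturated. Precision is limited by having 4 arrays a group. The fit was tested on simulated data.

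Named were the 12 largest called, non-overlapping changes in each direction, the 5 brightest and 3 shortest members, up to 6 in each direction against the host mRNA and up to 5 against longer circRNAs, Zfp609, Nfix, Cdyl and Pvt1 with the 4 brightest members of other studied hosts, the 3 hosts with the most members, the 2 largest called of each host list in each direction, and 4 factors in each direction; 1 of these decreases and 1 of these factors are not reported here. Other hosts with several members, the remaining Cdr1 circles and the opposite-strand examples were chosen after their values were seen. Members and gene lists were chosen with earlier results of these data known. Replicate numbers did not pair samples: residuals of same-numbered samples correlated at -0.30, -0.01, 0.00 and -0.05. Within groups, arrays correlated at 0.988 to 0.992, and no arrays were identical. Other scalings, filters, blocks and left-out arrays were tried as alternatives.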

Additional observations from a re-analysis of the deposited data

Results flagged for a closer look

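Of 136 groups of 4 arrays checked, 7 held an array that stood apart from the other 3 by Dixon's criterion, which chance gives in about 1 of 20 groups. Control 1 was high for the Kif15 circle, at -6.06 against -7.39 for the next, with all control arrays below background. Control 2 was high for Gnas (8.62 against 8.47), and control 4 for the Kcng3 circle (-0.91 against -1.06). Control 1 was low for the Pvt1 circle of 320 nt (-2.01 against -1.86). Among contusion arrays, number 1 was low for Neurl1b (-1.15 against -0.81), number 3 high for the circle opposite to Timp2 (-0.62 against -0.74) and number 4 low for the Zfp609 circle of 874 nt (-0.81 against -0.68).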

How the results depend on the processing

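Of 1356 calls, the count shared with the same sign was 1327 with the authors' deposited log2 table, 1220 with normexp (which adds an offset of 50) and quantile scaling, and 1121 with the slide as a block, and 0 calls had the opposite sign under any alternative. Leaving out 1 array gave 522 to 676 members higher and 614 to 709 lower (34.3% to 41.8%; median -0.02 to 0.0027). Relative to the host mRNA it gave 150 to 393 above and 102 to 140 below (8.6% to 17.9%; median 0.040 to 0.10), relative to longer circles 74 to 123 and 72 to 106 (6.37% to 9.99%; median -0.0059 to 0.0011), and for the factors 9 to 10 higher and 5 to 8 lower (40% to 51.4%; median 0.0019 to 0.099). With normexp and quantile scaling, 759 members were above and 421 below their mRNA (39.6%), and 176 above longer circles (14.8% called in all). With the circRNA percentile the median of members was 0.058 and of factors 0.12. With the slide as a block the median of members was -0.042, 168 were above their mRNA (median 0.0017), 74 above and 71 below longer circles (6.33%), and 5 factors fell (median 0.12); of the calls against the mRNA 54.2% were then above, and of the calls for factors 68.8% were higher, against 68.4% with the circRNA percentile. Replicate numbers did not pair the samples; with them as a replicate block 514 members were higher and 570 lower, 113 above and 81 below their mRNA (6.53%), 66 above and 51 below longer circles (5.11%), and 5 factors fell. Chosen after seeing the data, leaving out contusions 1 and 2 gave 161 above and 79 below the mRNA (8.06%; median 0.10) and 60 above and 46 below longer circles (4.62%). Contusion 1 alone, whose labels agree on the day, was also chosen after seeing the data and is assumed to vary like the controls. It gave 152 higher and 160 lower (9.41%; median -0.044), 1 above and 3 below the mRNA (0.134%; median 0.0077), 0 above and 0 below longer circles (0%), and 2 factors higher and 0 lower (5.71%). For single members, differences that turned sign were not called under either setting except those of Aurkb (-0.052) and Neurl1b (0.10) against longer circles with normexp. These were chr17:39845855-39845953 (-0.022 with normexp, -0.025 with contusion 1 alone), Cox6a1 (0.035 with the circRNA percentile, 0.0079 with the slide block, and -0.073 to 0.0074 over left-out arrays), Uhrf1 (0.046 with the circRNA percentile, 0.040 without control 1, and -0.057 to 0.060 over left-out arrays), Malat1 (-0.0076 with the authors' table, -0.0048 to 0.14 over left-out arrays), Prmt8 (-0.11 with the slide block, -0.31 with contusion 1 alone), Cdc6 (-0.0040 to 0.14 over left-out arrays) and Grm8 (-0.047 without contusions 1 and 2). The causes were not tested.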
